A study of Mus musculus with 40 samples.

Results

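The Runx genes encode the DNA-binding subunits of core binding factor, and Cbfb encodes the partner that all of them share. The 4 genes Runx1, Runx2, Runx3 and Cbfb were chosen by gene family, out of 21951 protein-coding genes, and described by the H3K27ac and H3K4me1 peaks around them in mouse blood progenitors. Their peaks were those overlapping the gene body, or those whose nearest protein-coding start site was that of a member within 50 kb. Peaks of the 6 lists of a mark that overlapped by at least 1 bp were merged into a region. By this rule the members had 196 of 71518 H3K27ac regions and 328 of 181776 H3K4me1 regions, made of 2293 of the 773134 peaks in 12 lists.

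The cells were sorted haematopoietic stem and progenitor cells of mice 21 days old, and the marks were mapped by ChIPmentation, in which the transposase Tn5 adds sequencing adapters to chromatin held on antibody beads. The mutant genotypes were Flt3-ITD (an internal tandem duplication in the receptor kinase FLT3), NUP98-HOXD13 (a nucleoporin and homeodomain fusion), Runx1-het, and the combinations Flt3-ITD/NUP98-HOXD13 as well as Flt3-ITD/Runx1-het, and they were set against wild type. Samples named Runx1-het carry the source name Runxf_Vav. No source used here gives their exact alleles, or says whether pups of a group shared a litter. Each genotype and mark had 3 samples, except 4 samples for H3K27ac in NUP98-HOXD13 and for both marks in Flt3-ITD/NUP98-HOXD13, and the samples of a group were pooled into 1 peak list by the authors. No value per animal could therefore be given, no test between genotypes was made, and the 95% Wilson intervals below cover counting error alone.

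RUNX proteins bind DNA through the Runt domain, and CBFB, which does not bind DNA itself, strengthens that binding and protects RUNX proteins from degradation. RUNX1 is needed for blood stem cells to form in the embryo and for platelet and lymphoid development later, RUNX2 is best known as the master regulator of bone-forming cells, and RUNX3 acts in T cells, NK cells and sensory neurons. Each Runx gene has a distal promoter P1 and a proximal promoter P2, which give proteins with different amino ends, and in definitive blood cells Runx1 is transcribed to a large part from P1. H3K27ac marks active promoters and enhancers, and H3K4me1 marks enhancers, active or primed.

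The promoter sequences are shown because the marks separated P1 from P2. They are the RefSeq promoters of build GRCm38.p6, which run from 250 bases before the start site to 50 bases after it. RefSeq promoters were found for P1 of all 3 Runx genes, for P2 of Runx1 and Runx3, and for Cbfb. In the P1 promoters the capitals mark the RUNX motif TGTGGT, or ACCACA on the other strand, and in the Runx1 P2 promoter they mark CpG dinucleotides. The P1 promoters lie at chr16:92826025-92826324, minus strand (Runx1), at chr17:44814578-44814877, minus strand (Runx2), and at chr4:135120395-135120694, plus strand (Runx3), and the Runx1 P2 promoter lies at chr16:92697280-92697579, minus strand.
Runx1 P1: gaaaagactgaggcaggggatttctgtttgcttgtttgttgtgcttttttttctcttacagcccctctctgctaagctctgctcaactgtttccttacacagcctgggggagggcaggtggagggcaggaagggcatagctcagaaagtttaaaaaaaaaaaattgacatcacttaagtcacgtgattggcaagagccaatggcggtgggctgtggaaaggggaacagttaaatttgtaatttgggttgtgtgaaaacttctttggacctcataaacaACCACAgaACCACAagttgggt
Runx2 P1: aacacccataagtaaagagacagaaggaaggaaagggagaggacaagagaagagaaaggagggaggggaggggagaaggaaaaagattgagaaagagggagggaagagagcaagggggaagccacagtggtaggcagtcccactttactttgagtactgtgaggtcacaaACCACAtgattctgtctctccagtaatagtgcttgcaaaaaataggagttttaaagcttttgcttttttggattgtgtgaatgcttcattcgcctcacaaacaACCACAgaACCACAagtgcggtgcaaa
Runx3 P1: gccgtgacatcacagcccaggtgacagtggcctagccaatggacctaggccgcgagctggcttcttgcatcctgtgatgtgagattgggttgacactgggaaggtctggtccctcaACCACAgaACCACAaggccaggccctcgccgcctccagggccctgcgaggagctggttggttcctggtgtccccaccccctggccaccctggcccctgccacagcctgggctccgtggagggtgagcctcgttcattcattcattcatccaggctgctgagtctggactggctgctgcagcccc
Runx1 P2: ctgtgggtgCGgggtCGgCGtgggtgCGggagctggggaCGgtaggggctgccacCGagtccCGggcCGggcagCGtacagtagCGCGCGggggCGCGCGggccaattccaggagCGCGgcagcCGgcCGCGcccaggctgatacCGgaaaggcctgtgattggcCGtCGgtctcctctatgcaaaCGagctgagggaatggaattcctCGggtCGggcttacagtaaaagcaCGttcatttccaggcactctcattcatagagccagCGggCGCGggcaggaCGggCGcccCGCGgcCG

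Every P1 promoter held the tandem pair ACCACAgaACCACA. In Runx1 the pair ran from base 28 to base 41 after the RefSeq start site, which is counted as base 0, in Runx2 from base 23 to base 36, and in Runx3 from base -134 to base -121. Runx2 P1 held 1 more motif, at bases -80 to -75. The same 18 bases, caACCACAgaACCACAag, stood in all 3 P1 promoters, and Runx1 and Runx2 shared 22 bases there. Among 32851 RefSeq promoters of this length, the exact pair on either strand was found in 4, namely the 3 Runx P1 promoters and that of Gm16225, a long non-coding RNA gene whose promoter overlaps Runx3 P1 on the opposite strand. These letters were searched after the sequences had been seen. The single motif TGTGGT was held by 16.8% of promoters, and 1.81% held it at least 2 times. The letters TGTGGT or ACCACA were not found in Runx1 P2, Runx3 P2 or the Cbfb promoter. The other motifs searched on both strands, the GATA motif AGATAA, the ETS motif CCGGAAG, the E-box motif CAGATG and the STAT motif TTCNNNGAA, were found in no promoter of a member, and 11.2%, 8.86%, 17.2% and 8.30% of all promoters held them. The promoters also differed in CpG content, with 35 CpG dinucleotides in Runx1 P2, 45 in Runx3 P2 and 30 in Cbfb, against 2 in Runx1 P1, 2 in Runx2 P1 and 8 in Runx3 P1, and with a median of 7 over all promoters.

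The lists set limits on what follows. The H3K27ac lists held 31978 to 43363 peaks and the H3K4me1 lists 72682 to 117039 peaks, and peaks were narrowest in the wild-type H3K27ac list (median width 389 bp, against 586 to 888 bp in the mutant lists). The files do not give read depth, and where a list lacks a region, the signal there may have been below the authors' threshold. Fold enrichment is the authors' ratio of signal to control at a peak, and it ranks peaks within a list. Stem and progenitor promoters carried H3K27ac peaks in every list, at 7 (Runx1-het) to 10 (NUP98-HOXD13 and Flt3-ITD/NUP98-HOXD13) of 10 marker genes, and at most 1 of 6 T and NK cell markers, 1 of 5 B cell markers, 1 of 5 erythroid markers and none of 4 monocyte markers did. Runx1, itself a member, is among the 10 stem and progenitor markers and had a peak in every list. Of the 5 markers of endothelium and stroma, Pecam1 had an H3K27ac promoter peak in all 6 lists, and Cdh5, Col1a1, Sp7 and Ibsp had none in any list, though Sp7 had an H3K4me1 promoter peak in all 6. Among the granulocyte markers Mpo, a gene already active in progenitors, was the single one with a peak in every list. The promoters of the Y-linked genes Ddx3y, Uty, Eif2s3y and Kdm5d had H3K27ac peaks in the Runx1-het and Flt3-ITD/Runx1-het lists and in no other list, so comparisons of either list with a genotype without Runx1-het also differ in sex-linked signal, whose part in the results was not tested. All members are autosomal.

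Runx1 was marked at P1 in every genotype and at P2 in a part of them. Runx1 lies at chr16:92601466-92826149 on the minus strand. H3K27ac peaks at the P1 promoter had folds of 17.7 for Flt3-ITD, 12.04 for NUP98-HOXD13, 21.6 for Runx1-het, 19.7 for Flt3-ITD/NUP98-HOXD13 and 14.7 for Flt3-ITD/Runx1-het, against 7.23 in wild type. These peaks stood at the 94.2, 90.5, 96.6, 94.1 and 93.4 percentiles of the mutant lists, and at the 82.7 percentile of the wild-type list, where the peak was in 2 pieces. The lowest value and the lowest rank were thus both in wild type. The Flt3-ITD summit lay 1811 bp downstream of P1, and those of the other lists lay within 1 kb of it. A peak at P1 in the Runx1-het lists says nothing on the state of the altered allele, since peak lists do not count gene copies.

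At Runx1 P2, 129 kb downstream of P1, the strongest H3K27ac peaks had folds of 4.04 for Flt3-ITD, 4.74 for NUP98-HOXD13, 5.22 for Flt3-ITD/NUP98-HOXD13 and 10.8 for Flt3-ITD/Runx1-het. The Runx1-het and wild-type lists had no H3K27ac peak within 1 kb of that start site. The region (chr16:92694971-92699005) overlaps coding and untranslated exon sequence. The same 4 lists held it when all lists were shortened to the same number of peaks. With a stricter −log10 q of at least 5, the Flt3-ITD list no longer held it and the other 3 did. H3K4me1 peaks stood beside P2 in all 6 lists, with summits 800 to 917 bp downstream of the start site and folds of 4.41 for Flt3-ITD, 5.09 for NUP98-HOXD13, 6.91 for Runx1-het, 5.25 for Flt3-ITD/NUP98-HOXD13 and 4.78 for Flt3-ITD/Runx1-het, against 4.76 in wild type. P2 thus had listed H3K4me1 in every genotype, with listed H3K27ac in 4 of 6. With −log10 q of at least 5 only the Runx1-het and Flt3-ITD/NUP98-HOXD13 lists held an H3K4me1 peak at P2. At P1 the H3K4me1 peaks within 1 kb were listed in Flt3-ITD (3.87), NUP98-HOXD13 (4.81), Flt3-ITD/NUP98-HOXD13 (2.74) and also Flt3-ITD/Runx1-het (6.02), and in neither Runx1-het nor wild type. At the stricter threshold the Flt3-ITD/Runx1-het peak alone was left at P1.

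**Figure D1:**
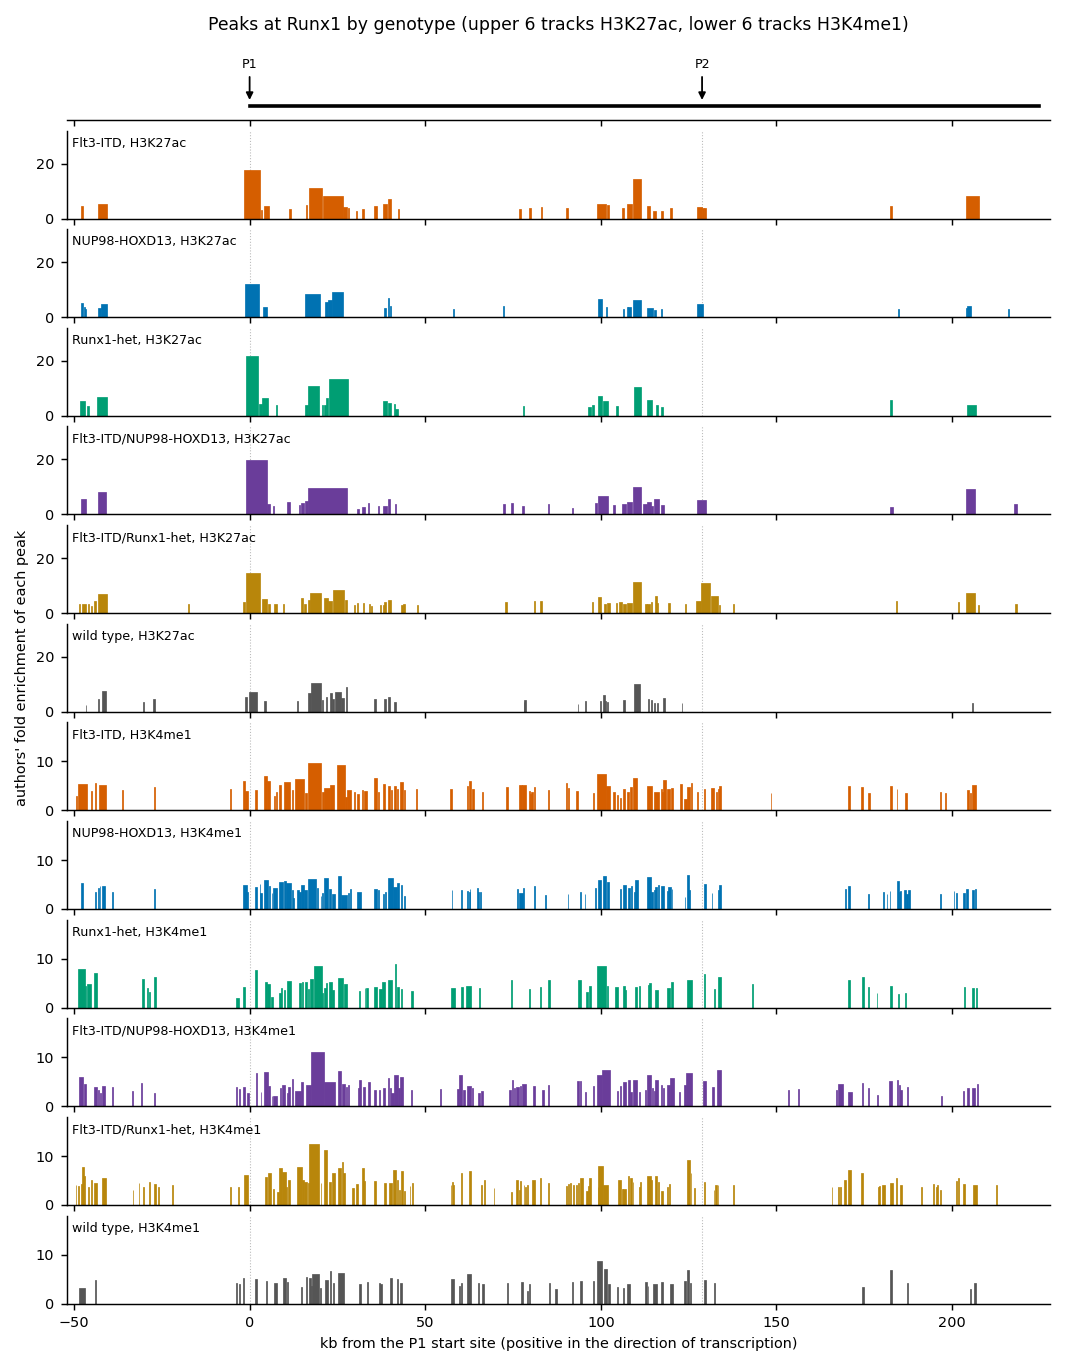
Peaks at Runx1 in each pooled list, with H3K27ac in the upper 6 tracks and H3K4me1 in the lower 6. The x axis gives kb from the P1 start site in the direction of transcription, each block is 1 peak, its height is the authors' fold enrichment, and dotted lines mark P1 and P2. The H3K27ac track of every genotype has a peak at P1, while those of Runx1-het and wild type have none at P2.

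Beyond the promoters, most Runx1 regions were intronic, 66 of 77 for H3K27ac and 115 of 137 for H3K4me1, and 9 and 20 lay upstream of the gene. The broadest H3K27ac region of the gene (chr16:92798123-92810564) lay in the intron 15.6 to 28.0 kb downstream of P1, the intron in which an enhancer active in blood stem cells has been described in mouse. It had folds of 11.1 for Flt3-ITD, 9.22 for NUP98-HOXD13, 13.4 for Runx1-het, 9.47 for Flt3-ITD/NUP98-HOXD13 and 8.50 for Flt3-ITD/Runx1-het, against 10.6 in wild type. Peaks covered 8980 to 11920 bases of it in the mutants and 8405 bases in wild type. All 6 lists held it, and the strongest H3K4me1 region of the gene (chr16:92805058-92810583) lay inside it, with folds of 9.63, 6.22, 8.62, 11.1 and 12.4 in the mutants in the same order, against 6.14 in wild type. The next H3K4me1 regions by highest fold, chr16:92801906-92804970 (up to 11.3) and chr16:92797318-92801319 (up to 9.21), adjoin it, and all 6 lists held both.

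A compact element between the promoters (chr16:92714616-92716982), 109.2 to 111.5 kb downstream of P1, had the highest fold of any non-promoter H3K27ac region of Runx1. The values were 14.2 for Flt3-ITD, 6.17 for NUP98-HOXD13, 10.6 for Runx1-het, 9.85 for Flt3-ITD/NUP98-HOXD13 and 11.4 for Flt3-ITD/Runx1-het, against 10.2 in wild type. The H3K4me1 region on it (chr16:92715612-92717105) was held by all 5 mutant lists, with folds of 4.24 to 6.54, and not by wild type. A further region, in an intron 203.9 to 207.5 kb downstream of P1 and so beyond P2 (chr16:92618610-92622280), had folds of 8.25 for Flt3-ITD, 4.12 for NUP98-HOXD13, 4.04 for Runx1-het, 9.31 for Flt3-ITD/NUP98-HOXD13 and 7.44 for Flt3-ITD/Runx1-het, against 3.10 in wild type. The wild-type peak covered 254 bases of it, and the mutant peaks 1442 to 3477 bases.

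A number of Runx1 regions went with a genotype. The 3 lists with Flt3-ITD, and no other, held 2 adjacent intronic H3K27ac regions, chr16:92793221-92794026 (folds 3.54 for Flt3-ITD, 2.77 for Flt3-ITD/NUP98-HOXD13 and 3.76 for Flt3-ITD/Runx1-het) and chr16:92795103-92795835 (2.76, 2.12 and 3.75), which lie at 30.3 to 32.9 kb, just downstream of the broad intronic region. Both were weak peaks, and 502 of all 71518 regions (0.702%) had this pattern. The 2 lists with NUP98-HOXD13, and no other, held 1 Runx1 region, chr16:92753497-92754005, with folds of 3.998 for NUP98-HOXD13 and 3.79 for Flt3-ITD/NUP98-HOXD13. That is 1 of the 77 Runx1 regions, and 1.39% of all regions had the pattern, so the count is at the level of the background. Both lists with Runx1-het, and no other, held 4 regions with folds of 3.17 to 3.90, at chr16:92721307-92721838, chr16:92728155-92728672, chr16:92818289-92819087 and chr16:92871812-92872348, a pattern of 0.573% of all regions. No Runx1 H3K27ac region was held by all 5 mutants and missing from wild type, while for H3K4me1 there were 6 of 137. Over all regions this pattern made up 1.58% for H3K27ac and 2.17% for H3K4me1.

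The number of Runx1 regions per list ran from 19 to 46 for H3K27ac and from 48 to 90 for H3K4me1. For H3K27ac the gene held 27 regions in Flt3-ITD, 19 for NUP98-HOXD13, 20 for Runx1-het, 34 for Flt3-ITD/NUP98-HOXD13 and 46 for Flt3-ITD/Runx1-het, against 23 in wild type. Their peaks covered 43.7, 31.4, 37.8, 51.6 and 51.6 kb in the mutants in that order, against 23.4 kb in wild type. The NUP98-HOXD13 and Runx1-het lists thus had fewer regions than wild type and more covered sequence. Their whole H3K27ac lists did too, with 27948 and 27072 regions, against 32255 in wild type. Those lists covered 34.7 and 35.9 Mb, against 28.0 Mb, so this is not a trait of Runx1. For H3K4me1 the counts were 70, 69, 57, 79 and 90 in the mutants and 48 in wild type. Of the 46 regions in Flt3-ITD/Runx1-het, 21 were in no other list, with a median fold of 3.22 and a median of 280 bases covered, against a median fold of 6.13 and 2109 bases for the 11 that all 6 lists held.

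**Figure D2:**
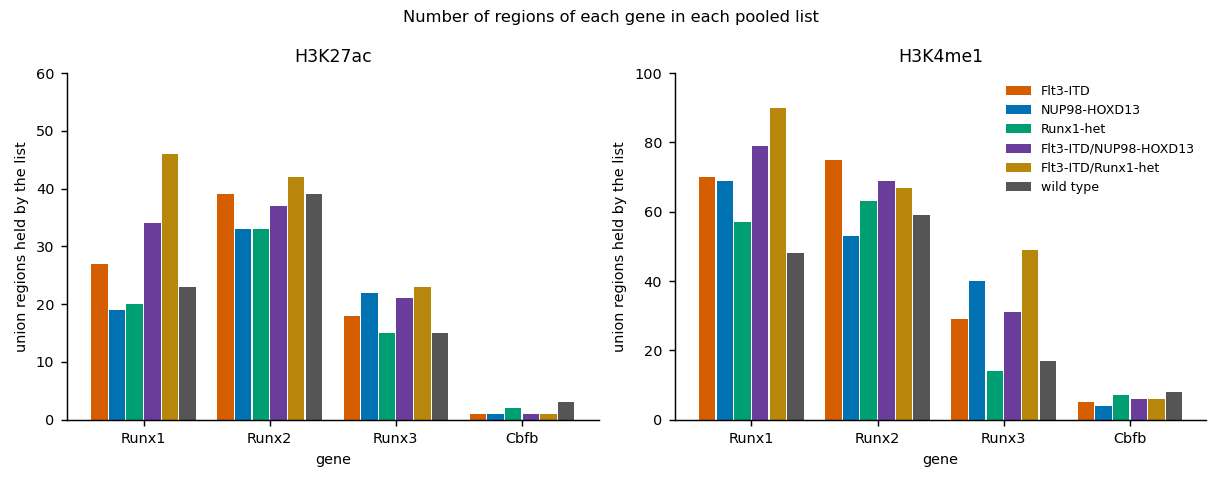
Number of regions of each gene held by each pooled list, H3K27ac on the left and H3K4me1 on the right, with 1 bar per genotype and no error bars because each genotype has 1 list. Runx1 ranges from 19 (NUP98-HOXD13) to 46 (Flt3-ITD/Runx1-het) H3K27ac regions, while Cbfb has 1 to 3.

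Runx2 had the most covered sequence of the family, although bone and not blood is its best known tissue. The gene lies at chr17:44495987-44814797, minus strand. By covered H3K27ac length, Runx2 ranked between 2 (wild type) and 6 (NUP98-HOXD13 and Flt3-ITD/NUP98-HOXD13) among 21924 genes treated by the same rule, while Runx1 ranked between 12 and 47, Runx3 between 39 and 173, and Cbfb between 6313 and 8674. Long genes hold more regions, and the ranks are not corrected for gene length. The peaks at Runx2 covered 79.2 kb in Flt3-ITD, 49.6 kb in NUP98-HOXD13, 72.9 kb in Runx1-het, 72.4 kb in Flt3-ITD/NUP98-HOXD13 and 69.6 kb in Flt3-ITD/Runx1-het, against 55.9 kb in wild type. NUP98-HOXD13 was the only mutant below wild type in this length.

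The highest H3K27ac fold at any member was that of an intronic Runx2 region (chr17:44611634-44618505), 196.3 to 203.2 kb downstream of P1 and beyond P2. The values were 29.7 for Flt3-ITD, 12.3 for NUP98-HOXD13, 22.6 for Runx1-het, 15.0 for Flt3-ITD/NUP98-HOXD13 and 22.8 for Flt3-ITD/Runx1-het, against 21.8 in wild type. The lists with NUP98-HOXD13 had the lowest values, and all 6 lists placed the summit about 200 kb from P1. The next region (chr17:44668985-44675347) had folds of 15.9, 10.4, 15.0, 16.7 and 17.8 in the mutants in the same order, against 11.6 in wild type. The third (chr17:44776285-44778810) spans the start site of Supt3, a gene that overlaps Runx2 on the opposite strand, so its signal cannot be told apart between the genes. Supt3 was the nearest start site for 4 H3K27ac and 8 H3K4me1 regions inside Runx2. Its gene body, which covers Runx2 P1, overlapped 14 H3K27ac and 28 H3K4me1 regions assigned to Runx2. Signal at those regions cannot be told apart between the genes either.

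Peaks reaching P2 of Runx2 had higher H3K27ac folds than those reaching P1, the reverse of Runx1, but most of their summits lay beyond P2. The strongest H3K27ac peak reaching within 1 kb of P2 had folds of 11.6 for Flt3-ITD, 5.26 for NUP98-HOXD13, 10.4 for Runx1-het, 7.74 for Flt3-ITD/NUP98-HOXD13 and 8.16 for Flt3-ITD/Runx1-het, against 6.80 in wild type. Fold is taken at the summit, which lay 3296 bp downstream of P2 for Flt3-ITD, 3496 bp for Runx1-het, 1416 bp for Flt3-ITD/NUP98-HOXD13 and 3494 bp in wild type. These values are therefore not those of P2 itself. The summit lay 742 bp downstream for NUP98-HOXD13 and 741 bp for Flt3-ITD/Runx1-het. The strongest peak reaching within 1 kb of P1 had folds of 3.66 for Flt3-ITD, 5.74 for Runx1-het, 3.79 for Flt3-ITD/NUP98-HOXD13 and 3.88 for Flt3-ITD/Runx1-het, against 5.33 in wild type, and NUP98-HOXD13 had no peak. The P2 value exceeded the P1 value in each list that had both, but among these only Flt3-ITD/Runx1-het had its P2 summit within 1 kb. For H3K4me1, peaks reached within 1 kb of P1 in all 6 lists (folds 9.32, 4.37, 7.32, 5.02 and 6.23 in the mutants, against 5.04 in wild type) and of P2 for Flt3-ITD/NUP98-HOXD13 alone (3.36). That P2 peak was in no list of the same length and in none with −log10 q of at least 5, and at that threshold H3K27ac at P1 was held for Runx1-het, Flt3-ITD/NUP98-HOXD13 and wild type only. The 2 strongest H3K4me1 regions of the gene by highest fold lay 81.1 to 87.9 kb downstream of P1, past P2 and over most of the acetylated P2 region, at chr17:44730224-44733667 and chr17:44726880-44730065, the first with folds of 13.4 for Flt3-ITD, 7.66 for NUP98-HOXD13, 14.7 for Runx1-het, 6.601 for Flt3-ITD/NUP98-HOXD13 and 6.02 for Flt3-ITD/Runx1-het, against 7.99 in wild type. The next one, chr17:44668947-44675363 (up to 11.2), coincided with the acetylated region 139.4 to 145.8 kb from P1.

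A few Runx2 regions were present or missing by genotype. Intronic H3K27ac regions at chr17:44631512-44632066 and chr17:44714207-44715154 were missing from both NUP98-HOXD13 lists and held by the other 4, a pattern shared by 314 of all regions (0.439%). The first had folds of 3.01 for Flt3-ITD, 5.41 for Runx1-het and 3.53 for Flt3-ITD/Runx1-het, against 5.14 in wild type. The second had 3.14, 4.31 and 3.89 in the same mutants, against 5.001 in wild type. The region chr17:44633730-44634677 was held by both NUP98-HOXD13 lists and no other (3.89 for NUP98-HOXD13 and 4.52 for Flt3-ITD/NUP98-HOXD13). That is 1 of 81 Runx2 regions beside 1.39% of all regions, so this count is at the level of the background. All 5 mutants and not wild type held 3 of 81 Runx2 regions, chr17:44618692-44620134, chr17:44659620-44661846 and chr17:44681503-44682755, with folds of 2.44 to 5.63, beside 1.58% of all H3K27ac regions. For H3K4me1 the same pattern was seen at 5 of 108 Runx2 regions, beside 2.17% of all. An H3K4me1 region at chr17:44640782-44641435 was missing from the 3 lists with Flt3-ITD and from no other, with folds of 3.32 for NUP98-HOXD13 and 4.72 for Runx1-het, against 4.76 in wild type. That pattern was seen at 0.135% of all H3K4me1 regions. For H3K4me1 the gene held 75 regions in Flt3-ITD, 53 for NUP98-HOXD13, 63 for Runx1-het, 69 for Flt3-ITD/NUP98-HOXD13 and 67 for Flt3-ITD/Runx1-het, against 59 in wild type, so that NUP98-HOXD13 had the lowest count.

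**Figure D3:**
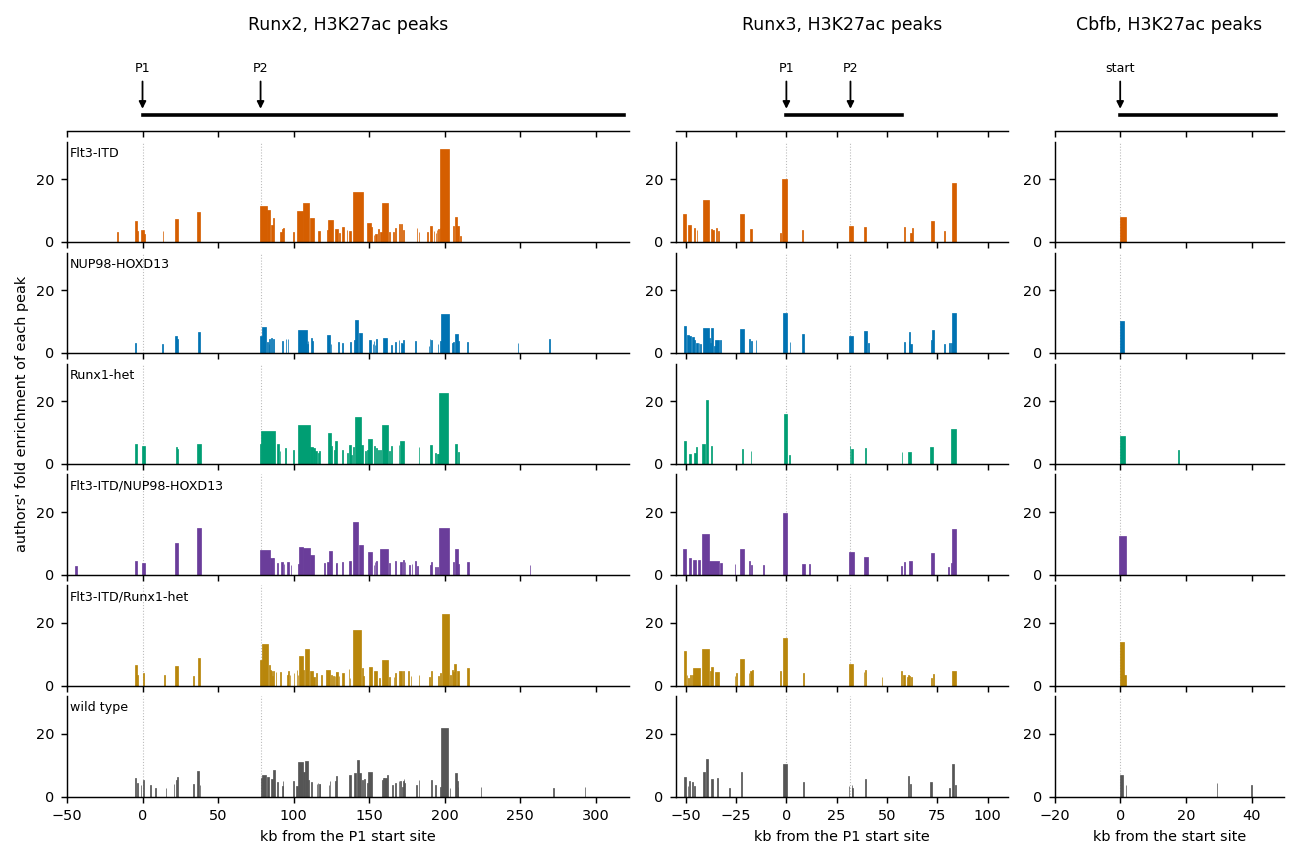
H3K27ac peaks at Runx2, Runx3 and Cbfb in each pooled list, drawn as blocks whose height is the authors' fold enrichment, against kb from the P1 start site (the single start site for Cbfb). At Runx2 the strongest block lies about 200 kb downstream of P1 in every genotype except Flt3-ITD/NUP98-HOXD13, where the block at 139.4 to 145.8 kb is slightly higher (16.7 against 15.0).

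Runx3 was acetylated at both promoters and mostly outside the gene body. The gene lies at chr4:135120652-135177990, plus strand. P1 had H3K27ac folds of 20.0 for Flt3-ITD, 12.8 for NUP98-HOXD13, 15.8 for Runx1-het, 19.8 for Flt3-ITD/NUP98-HOXD13 and 15.3 for Flt3-ITD/Runx1-het, against 10.3 in wild type. The CpG-rich P2 had lower folds in every list, 5.10, 5.26, 5.74, 7.34 and 6.91 in the mutants and 3.68 in wild type. The wild-type fold was the lowest of the 6 at both promoters. By rank within its list, wild type was lowest at P2 (23.1 percentile). At P1 it was not, with the 91.84 percentile, against 91.80 for NUP98-HOXD13. H3K4me1 peaks near P1 were listed in NUP98-HOXD13 (2.84), Flt3-ITD/Runx1-het (6.53) and wild type (6.42), and near P2 for NUP98-HOXD13 (2.63) and Flt3-ITD/Runx1-het (6.597).

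Of the 34 H3K27ac regions of Runx3, 17 lay upstream, 8 downstream and 6 in introns. The strongest of these (chr4:135078611-135082252), 42.0 to 38.4 kb upstream of P1, had folds of 13.3 for Flt3-ITD, 7.90 for NUP98-HOXD13, 20.2 for Runx1-het, 13.1 for Flt3-ITD/NUP98-HOXD13 and 11.7 for Flt3-ITD/Runx1-het, against 11.9 in wild type, and the strongest H3K4me1 region of the gene (chr4:135080640-135082189) lay within it in all 6 lists. A downstream region (chr4:135202479-135204994) had folds of 18.8, 12.6, 10.98, 14.5 and 4.74 in the mutants in that order, against 10.3 in wild type, so that Flt3-ITD/Runx1-het stood lowest. The next region, chr4:135069495-135070819, 51.2 to 49.8 kb upstream, had folds of 8.76, 8.42, 7.41, 8.09 and 11.01 in the mutants in that order, against 6.32 in wild type. The downstream region is 49.98 kb from the nearest Runx3 start site and so is the member region nearest to the 50 kb limit, while the first H3K27ac region beyond the limit, at 51.6 kb, was in 1 list with a fold of 2.85. For Runx1 the last region inside was at 48.2 kb (fold 3.28, 1 list) and the first outside at 52.4 kb (2.56, 1 list), and for Runx2 at 43.5 kb (2.87, 1 list) and 71.2 kb (3.35, 1 list).

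The count of Runx3 H3K4me1 regions had the widest range in the family, as the ratio of the highest to the lowest list. It was 29 for Flt3-ITD, 40 for NUP98-HOXD13, 14 for Runx1-het, 31 for Flt3-ITD/NUP98-HOXD13 and 49 for Flt3-ITD/Runx1-het, against 17 in wild type. Runx1-het was the only mutant below wild type. Its whole H3K4me1 list was also the only mutant list with fewer regions than wild type, 58175 against 59110. Scaled to the number of regions in each list, the Runx3 count for Runx1-het was still the only mutant one below wild type. This difference was not tested. The length covered at Runx3 was 20.3, 32.1, 8.14, 27.1 and 32.5 kb in the mutants, against 8.28 kb in wild type. For H3K27ac the counts were 18, 22, 15, 21 and 23 in the mutants, against 15 in wild type. An upstream region, chr4:135101882-135103429, was held by all 5 mutants for H3K27ac with folds of 4.04 to 4.77, and the H3K4me1 region on it (chr4:135101618-135103956) was also held by all 5, with folds of 3.50 to 5.87. Wild type held neither. Another H3K4me1 region with that pattern, chr4:135071229-135073513, had folds of 4.19 to 9.86. Both lists with NUP98-HOXD13, and no other, held the H3K27ac region chr4:135087719-135088446 (4.20 for NUP98-HOXD13 and 3.74 for Flt3-ITD/NUP98-HOXD13), and the 3 lists with Flt3-ITD, and no other, held the H3K4me1 region chr4:135199167-135199718 (folds 3.20 to 5.96). The first pattern was seen at 1.39% of all H3K27ac regions and the second at 0.855% of all H3K4me1 regions, so 1 of 34 and 1 of 68 Runx3 regions are not results about the gene. The H3K4me1 region chr4:135098671-135099445 had folds of 5.09 for NUP98-HOXD13, 4.48 for Runx1-het, 4.02 for Flt3-ITD/NUP98-HOXD13 and 10.2 for Flt3-ITD/Runx1-het, and neither Flt3-ITD nor wild type held it. Presence in all mutants and absence from wild type was seen at 1.58% of all H3K27ac regions and 2.17% of all H3K4me1 regions.

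Cbfb, the shared partner, had a single acetylated element of note, its promoter. The gene lies at chr8:105170674-105217989, plus strand. The promoter region (chr8:105170287-105172520) was in all 6 lists, with H3K27ac folds of 7.99 for Flt3-ITD, 10.2 for NUP98-HOXD13, 8.84 for Runx1-het, 12.3 for Flt3-ITD/NUP98-HOXD13 and 14.0 for Flt3-ITD/Runx1-het, against 6.98 in wild type. Its peaks stood at the 78.5 to 92.7 percentiles of the lists. Wild type, lowest by fold, stood at 81.7, above Flt3-ITD (78.5) and Runx1-het (80.6). The 3 other H3K27ac regions were intronic, each in 1 list, 2 in wild type (folds 4.34 and 3.68) and 1 for Runx1-het (4.25). H3K4me1 was held at 5, 4, 7, 6 and 6 regions in the mutants in that order, against 8 in wild type, and 1 of the 15, intronic at chr8:105190863-105192294, was in all 6 lists with folds of 3.45 to 5.26. The highest Cbfb H3K4me1 folds were at chr8:105187581-105188694 (up to 6.14, missing from Flt3-ITD/Runx1-het) and chr8:105171993-105172523 (up to 5.63, in 3 lists). The loci of the DNA-binding subunits thus held between 15 and 46 H3K27ac regions per list, and that of their partner 1 to 3.

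**Figure D4:**
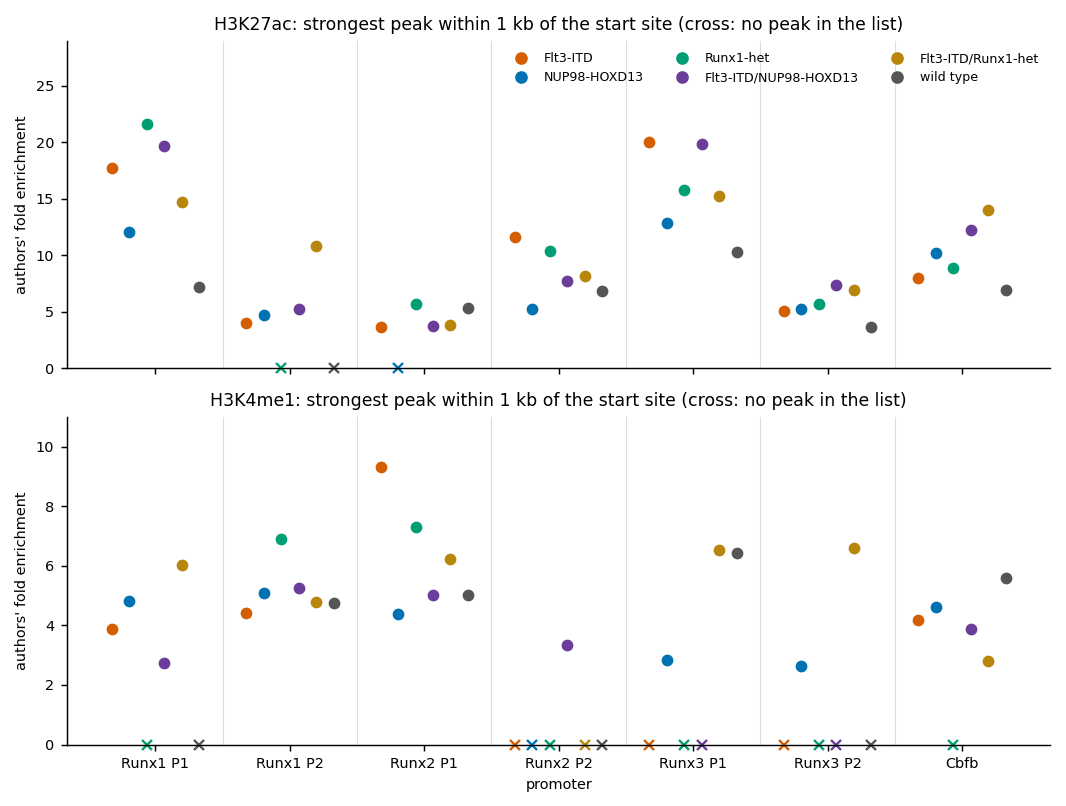
Authors' fold enrichment of the strongest peak reaching within 1 kb of each start site, H3K27ac above and H3K4me1 below, with 1 point per genotype and a cross where the list has no peak. The summit, where fold is taken, can lie farther away, as at Runx2 P2. The wild-type H3K27ac value is the lowest of the listed values at Runx1 P1, Runx3 P1, Runx3 P2 and Cbfb, and at Runx1 P2 the crosses are Runx1-het and wild type. By rank within its list, wild type is not the lowest at Runx3 P1 or Cbfb.

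Set against other promoters, those of the members stood on both sides of the middle. Over all genes with a promoter H3K27ac peak, 9383 for Flt3-ITD, 9865 for NUP98-HOXD13, 8601 for Runx1-het, 9940 for Flt3-ITD/NUP98-HOXD13 and 10074 for Flt3-ITD/Runx1-het, against 8598 in wild type, the median fold was 9.54, 8.80, 9.08, 10.7 and 9.76 in the mutants and 7.64 in wild type. Runx3 P1 stood above the median in every list, and Runx1 P1 in every mutant list but not in wild type. The strongest peak at any annotated Runx2 start site was below the median for NUP98-HOXD13 (8.29), Flt3-ITD/NUP98-HOXD13 (7.74) and wild type (6.80), and above it in the other 3 lists. The values for NUP98-HOXD13 and Flt3-ITD/Runx1-het (13.3) came from a start site other than P1 and P2. For Flt3-ITD/Runx1-het the P2 value (8.16) was below the median. Cbfb was below the median for Flt3-ITD, Runx1-het and wild type. The folds of Runx1 P2, other than 10.8 for Flt3-ITD/Runx1-het, and those of Runx2 P1 were under the median of their list. The wild-type list therefore had lower promoter folds in general, beside the low wild-type values at the members.

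Across the family, regions were shared among genotypes about as often as elsewhere for H3K27ac and more often for H3K4me1. All 6 lists held 40 of the 196 H3K27ac regions (20.4%), against 19.3% of all regions, and 67 of the 328 H3K4me1 regions (20.4%), against 9.97%. A single list held 97 H3K27ac regions (49.5%), against 52.6% of all, and 112 H3K4me1 regions (34.1%), against 49.3%. Runx2 had 34 of 108 H3K4me1 regions in all 6 lists (31.5%), Runx1 25 of 137 (18.2%), Runx3 7 of 68 (10.3%) and Cbfb 1 of 15 (6.67%). The higher H3K4me1 share was thus that of Runx2 and Runx1. For H3K27ac the shares were 14.3% at Runx1, 19.8% at Runx2, 35.3% at Runx3 and 25% at Cbfb (1 of 4). The H3K27ac regions in all lists were the strong ones, with median folds of 6.02 (NUP98-HOXD13) to 7.39 (Flt3-ITD/NUP98-HOXD13) in the mutants and 6.32 in wild type, whereas those of 1 list alone had medians of 3.11 to 3.699 in the mutants and 3.65 in wild type.

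Over the 4 genes together, H3K27ac peaks overlapped H3K4me1 peaks more often than over the genome. Of the members' H3K27ac peaks, 87.6% for Flt3-ITD, 75.0% for NUP98-HOXD13, 77.3% for Runx1-het, 86.6% for Flt3-ITD/NUP98-HOXD13 and 77.2% for Flt3-ITD/Runx1-het, against 60% in wild type, overlapped an H3K4me1 peak of the same genotype. Over all H3K27ac peaks the shares were 64.7%, 62.7%, 53.9%, 68.9% and 60.7% in the mutants and 40.5% in wild type. The 95% interval of the members lay above the share of all peaks in every genotype, for instance 66.6 to 81.9% for NUP98-HOXD13 and 51.6 to 67.9% in wild type. Peaks within a gene are not independent of each other, and a list with more or wider peaks overlaps more. At Runx1 the share was 91.4% for Flt3-ITD, 76.7% for NUP98-HOXD13, 79.3% for Runx1-het, 83.8% for Flt3-ITD/NUP98-HOXD13 and 74.2% for Flt3-ITD/Runx1-het, against 41.0% in wild type (interval 27.1 to 56.6%), where it was at the level of all wild-type peaks. Runx3 for Runx1-het was below all peaks (9 of 18, against 53.9%), and at Cbfb the overlap was 0 of 1 peak for NUP98-HOXD13, 0 of 2 for Flt3-ITD/Runx1-het and 1 of 4 in wild type. Conversely, 49.5% (Flt3-ITD/NUP98-HOXD13) to 41.9% (NUP98-HOXD13) of the members' H3K4me1 peaks in the mutants, against 43.8% in wild type, overlapped H3K27ac, compared with 29.6 to 32.8% of all H3K4me1 peaks in the mutants and 26.1% in wild type.

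The first comparison, Flt3-ITD against wild type, concerns the receptor mutation alone. A region was called gained when it was in the first list of a pair and not in the second, and lost when only the second had it, out of the regions that either list held. At the members 32 of 112 H3K27ac regions were gained (28.6%) and 27 were lost (24.1%), against 27.6% gained and 30.4% lost over all regions. With lists of the same length there were 31 gained and 15 lost, and with −log10 q of at least 5 there were 24 gained and 4 lost, so that the gained share of changed regions, 54.2%, became 67.4% and 85.7%. Here and below, shares over all regions are given at the authors' threshold only. Changes of the members' shares at other settings therefore cannot be told apart from changes of the whole lists. Runx1 gained 12 and lost 8, Runx2 gained 15 and lost 15, Runx3 gained 5 and lost 2, and Cbfb gained 0 and lost 2. For H3K4me1, 72 of 204 were gained (35.3%) and 25 lost (12.3%), against 40.5% and 23.7% over all regions. For H3K27ac the interval of the gained share, 41.7 to 66.3%, held the 47.6% of all regions, so no difference from them is read. For H3K4me1 losses were a smaller share at the members. The gained share of changed H3K4me1 regions was 74.2% (interval 64.7 to 81.9%), against 63.1% over all regions. It was 64.8% with lists of the same length and 61.4% with −log10 q of at least 5.

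NUP98-HOXD13 against wild type gave 30 gained (27.3%) and 35 lost (31.8%) of 110 H3K27ac regions, against 24.4% and 34.5% over all regions. The counts were 8 gained and 1 lost at Runx3, 6 gained and 10 lost at Runx1, and 16 gained and 22 lost at Runx2. For H3K4me1 there were 25 gained and 2 lost at Runx3, 35 gained and 14 lost at Runx1, and 13 gained and 19 lost at Runx2, so that Runx1 did not go with Runx2 here. These differences between genes were not tested. Together 73 of 205 H3K4me1 regions were gained (35.6%) and 39 lost (19.0%), against 39.7% and 28.4% over all regions. The gained share of changed H3K4me1 regions, 65.2%, was 16.7% with −log10 q of at least 5. That of H3K27ac regions, 46.2%, was 51.0% with lists of the same length, 52.9% with −log10 q of at least 5 and 52.1% when peaks had to cover 0.5 of a region, all inside its interval, so no direction is given for it.

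Runx1-het against wild type concerns the altered Runx1 gene and the family's own loci. Of 99 H3K27ac regions 19 were gained (19.2%) and 29 lost (29.3%), against 23.7% and 36.0% over all regions. The gained share of changed regions, 39.6% (interval 27.02 to 53.7%), was close to the 39.7% of all regions. It turned to 61.5% with lists of the same length, to 94.7% with −log10 q of at least 5 and to 59.7% when peaks had to cover 0.5 of a region, so its direction was not stable. Runx1 itself gained 6 and lost 9, Runx2 gained 9 and lost 15, and Runx3 gained 3 and lost 3. For H3K4me1, 43 of 175 were gained (24.6%) and 34 lost (19.4%), against 31.9% and 33.0% over all regions, with 20 gained and 11 lost at Runx1 and 4 gained and 7 lost at Runx3.

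At the authors' threshold the double mutants had the most gains at Runx1. Flt3-ITD/NUP98-HOXD13 against wild type gave 42 gained (34.4%) and 29 lost (23.8%) of 122 H3K27ac regions, against 26.9% and 31.7% over all regions, and 19 of the gains and 8 of the losses were at Runx1. For H3K4me1, 78 of 210 were gained (37.1%) and 25 lost (11.9%), against 41.7% and 23.6%. Flt3-ITD/Runx1-het against wild type gave 60 gained (42.9%) and 28 lost (20.0%) of 140 H3K27ac regions, against 33.1% and 28.5%, with 34 gained and 11 lost at Runx1. For H3K4me1 it gave 115 gained (46.6%) and 35 lost (14.2%) of 247, against 48.6% and 23.0%, with 54 gained and 12 lost at Runx1 and 36 gained and 4 lost at Runx3. The gained share of changed H3K27ac regions was 59.2% for Flt3-ITD/NUP98-HOXD13 and 68.2% for Flt3-ITD/Runx1-het, against 45.9% and 53.7% over all regions. The members' 60 H3K27ac gains for Flt3-ITD/Runx1-het were 34 with lists of the same length and 14 with −log10 q of at least 5, where Flt3-ITD had 24, Runx1-het 18 and Flt3-ITD/NUP98-HOXD13 18. The order of the genotypes by gains thus depends on the threshold. These 5 comparisons share the wild-type list, so they are not separate evidence.

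Adding Flt3-ITD to another mutation was compared with that mutation alone. Flt3-ITD/NUP98-HOXD13 against NUP98-HOXD13 gave 35 gained (31.8%) and 17 lost (15.5%) of 110 H3K27ac regions, against 24.8% and 18.9% over all regions, and Runx1 had 18 of the gains and 3 of the losses. For H3K4me1 there were 59 gained (26.2%) and 40 lost (17.8%) of 225, against 32.1% and 25.1%, and Runx3 ran the other way from Runx2, with 9 gained and 18 lost, against 22 gained and 6 lost at Runx2. Flt3-ITD/Runx1-het against Runx1-het gave 57 gained (44.9%) and 15 lost (11.8%) of 127 H3K27ac regions, against 37.6% and 20.5%, and Runx1 had 31 gained and 5 lost. Its gained share of changed regions, 79.2%, came to 54.0% with lists of the same length and to 34.8% with −log10 q of at least 5. For H3K4me1 there were 103 gained (42.2%) and 32 lost (13.1%) of 244, against 48.6% and 21.8%, with 38 gained and 3 lost at Runx3.

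Adding the other mutation to Flt3-ITD was compared with Flt3-ITD alone. Flt3-ITD/NUP98-HOXD13 against Flt3-ITD gave 31 gained (26.7%) and 23 lost (19.8%) of 116 H3K27ac regions, against 23.5% and 25.6% over all regions, and 50 gained (21.8%) and 44 lost (19.2%) of 229 H3K4me1 regions, against 30.1% and 28.6%. The gained share of changed H3K4me1 regions, 53.2%, was 46.0% with lists of the same length and 46.4% with −log10 q of at least 5. That of H3K27ac regions, 57.4%, was 36.4% with −log10 q of at least 5. Flt3-ITD/Runx1-het against Flt3-ITD gave 48 gained (36.1%) and 21 lost (15.8%) of 133 H3K27ac regions, against 30.2% and 22.3%, with 28 gained and 9 lost at Runx1. With lists of the same length its gained share of changed regions was 47.4%, in place of 69.6%, and with −log10 q of at least 5 it was 32.1%. For H3K4me1 it gave 86 gained (32.5%) and 53 lost (20.0%) of 265, against 37.5% and 27.1%, with 27 gained and 7 lost at Runx3 and 17 gained and 25 lost at Runx2.

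**Figure D5:**
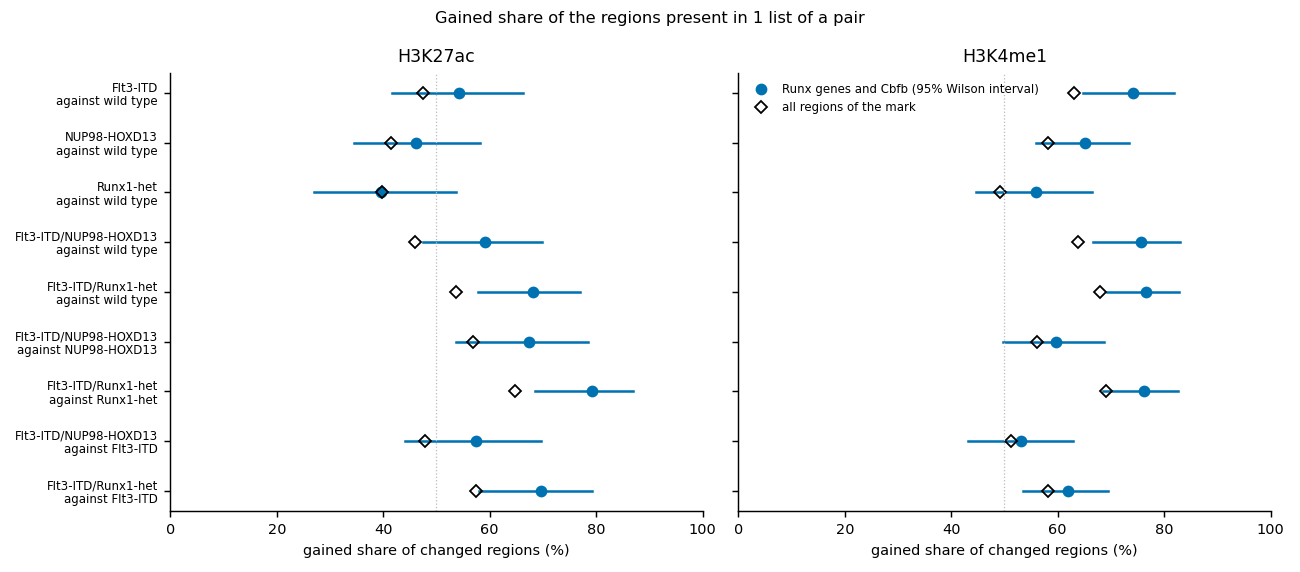
Gained share of the changed regions in each comparison, in percent, for the Runx genes and Cbfb together (filled points with 95% Wilson intervals, counting error alone) and for all regions of the mark (open diamonds). For H3K27ac the members' point is above the diamond in 8 of 9 comparisons and level with it in Runx1-het against wild type. The interval holds the diamond for Flt3-ITD, NUP98-HOXD13 and Runx1-het against wild type, and for Flt3-ITD/NUP98-HOXD13 against either single mutant. The comparisons share lists, so they are not separate evidence.

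Genes of the RUNX pathway were read from lists of cofactors, partner factors and targets. Among 18 cofactors, H3K27ac promoter peaks stood at 14 (Runx1-het) to 16 genes in the mutants and at 15 in wild type, over a background of 8601 to 10074 of 21924 genes in the mutants and 8598 in wild type. Cbfa2t3, which encodes the ETO-family corepressor ETO2, had a promoter peak in all 5 mutants and not in wild type, and Kat6a, which encodes the acetyltransferase MOZ, lacked one in Flt3-ITD and Runx1-het alone. Around the corepressor gene Tle3 and around Cbfa2t3 the Flt3-ITD/Runx1-het list gained 6 and 4 H3K27ac regions against wild type and lost 1 and 0, whereas Tle4 gained 1 and lost 5. Over the list in that comparison, 6 cofactors had more gained than lost and 8 the reverse, with a median difference of 0, as over all genes, where 4757 had more gained and 3433 more lost. In NUP98-HOXD13 against wild type Cbfa2t3 gained 25 H3K4me1 regions and lost 0.

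Of the 7 factors that bind with RUNX1 in blood stem cells, Tal1, Fli1, Erg, Lmo2, Lyl1 and Spi1 had an H3K27ac promoter peak in every list, and Gata2 had one in NUP98-HOXD13, Flt3-ITD/NUP98-HOXD13 and wild type. Fli1, an ETS factor gene, lost 16 H3K27ac regions in Flt3-ITD, 18 for NUP98-HOXD13, 18 for Runx1-het, 18 for Flt3-ITD/NUP98-HOXD13 and 15 for Flt3-ITD/Runx1-het, all against wild type, and gained 6, 0, 1, 1 and 5. The regions held by either list of each pair were 34, 28, 29, 29 and 33, and over all regions 28.5 to 36.0% were lost in these comparisons, which share the wild-type list. For H3K4me1 all 7 factors had more gained than lost regions both in NUP98-HOXD13 and, likewise, in Flt3-ITD/Runx1-het against wild type, with medians of 3 and 7 more gained than lost, against a median of 1 over all genes in both comparisons. Over all genes 7338 had more gained and 4513 more lost in the first comparison, and 9428 and 3275 in the second. In Runx1-het against wild type 3 of the 7 factors had more gained and 2 more lost, with a median of 0, as over all genes.

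Among 24 RUNX target genes, H3K27ac promoter peaks stood at 10 for Flt3-ITD, 11 for NUP98-HOXD13, 8 for Runx1-het, 12 for Flt3-ITD/NUP98-HOXD13 and 12 for Flt3-ITD/Runx1-het, against 9 in wild type. These shares are near those of all genes, 8601 to 10074 of 21924 in the mutants and 8598 in wild type. Mpo, Itga2b, Gfi1, Ccnd3, Cdkn1a, Myb and Kit had one in every list. Pf4, a platelet chemokine gene, lacked one in Runx1-het alone, and Csf3r, the G-CSF receptor gene, had one in every mutant and not in wild type. In Flt3-ITD/Runx1-het against Runx1-het 17 targets had more gained than lost H3K27ac regions and 0 the reverse, with a median difference of 1, against 0 over all genes, where 5346 had more gained and 2293 more lost, and the largest gains were at Kit (11 gained, 1 lost), which encodes the stem cell factor receptor, and at Mpo (7 gained, 0 lost). In Runx1-het against wild type 3 targets had more gained and 10 more lost, against 2670 and 4693 of all genes.

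The genes whose numbers of regions over the 12 lists were most like those of a member were found by the mean absolute difference. For Runx1 they were Cux1 (7.17 regions), Rere (7.75) and Elmo1 (8.08), for Runx2 they were Sgms1 (5.75) and Elmo1 (6.33), and for Runx3 they were Zfp710 (3.25) and Galnt2 (3.58). Cbfb had 4 genes tied at 0.583, of which Acot4 and Cd28 come first by symbol.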

How the data were processed

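H3K27ac and H3K4me1 were mapped in 39 samples of 6 genotypes, and 1 input sample was not analysed here. Reads were aligned with BWA to mm10/GRCm38 and peaks called with MACS2, per the submitters' processing notes, and no source used here gives versions or thresholds. The authors deposited 1 pooled peak list per genotype and mark, which gives fold enrichment (a ratio to control) at each summit. The lists deposited by the authors also hold the peak caller's −log10 q, used here for a stricter threshold, and an integer score of up to 1000, not used further. Peak numbers run past the number of peaks, so that each list is part of a longer one (39.3 to 70.6% of the highest number for H3K27ac, 52.0 to 68.1% for H3K4me1). Tn5 insertion bias and peak fragmentation, which differs with signal, can change peak widths and counts.

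Peaks were assigned with GENCODE M21 annotation, using 41421 start sites of protein-coding genes, and a promoter peak had any part within 1 kb of a start site. Its summit, where fold is taken, could lie farther away. Python 3.11.15, pandas 2.3.3, numpy 2.4.6, statsmodels 0.14.6 (Wilson intervals) and matplotlib 3.10.9 were used. On simulated data, 2000 of 2000 planted gains and 1500 of 1500 planted losses were recovered, using a modified wild-type H3K27ac list. The gains were planted away from other peaks, so this checks the counting alone and not the effects of threshold, depth or peak fragmentation. Alternatives were lists of the same length (31978 H3K27ac and 72682 H3K4me1 peaks), −log10 q of at least 5, peaks covering at least 0.5 of a region, and gene bodies only. Members and gene lists were chosen with earlier results of these data known. Regions named were those at promoters, the 3 highest by fold per gene and mark elsewhere, and those whose lists follow a genotype; H3K4me1 regions of that last kind are mostly given as counts. In the pathway lists the genes with the most gained or lost regions were named, and genes named for a promoter peak, with Mpo, were chosen after their values were seen. A few genes of these lists are not reported here by name. Tle5 was not in the annotation by that name, which leaves 18 cofactors. Motifs were planned for windows at peak summits and were searched in RefSeq promoters instead, because no genome sequence was used here.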

Additional observations from a re-analysis of the deposited data

How the results depend on the processing

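No paired analysis was possible because each peak list pools the samples of a group and carries no replicate number, and for the same reason no replicate could be left out. Restricting regions to gene bodies left all 18 gained shares inside their intervals. All 12 numbers of regions held fell, but by less than the factor of 1.5 within which a number was counted as unchanged. For instance, H3K4me1 regions of Flt3-ITD/Runx1-het fell from 212 to 160, and H3K27ac regions of Flt3-ITD from 85 to 66. A gained share is given as reversed where it crossed 50% and left its interval. Inside the interval, the H3K27ac share for NUP98-HOXD13 against wild type (46.2%) crossed 50% with lists of the same length (51.0%), with −log10 q of at least 5 (52.9%) and with peaks covering at least 0.5 of a region (52.1%), and the H3K4me1 share for Flt3-ITD/NUP98-HOXD13 against Flt3-ITD (53.2%) crossed it with lists of the same length (46.0%) and with −log10 q of at least 5 (46.4%). With lists of the same length, 9 gained shares moved beyond their interval. The H3K27ac ones were 67.4% for Flt3-ITD and 61.5% for Runx1-het against wild type (39.6% before, so reversed), 54.0% for Flt3-ITD/Runx1-het against Runx1-het, and 47.4% for Flt3-ITD/Runx1-het against Flt3-ITD (reversed). The H3K4me1 ones were 53.9% for NUP98-HOXD13, 61.6% for Flt3-ITD/NUP98-HOXD13 and 61.0% for Flt3-ITD/Runx1-het against wild type, and 55.4% and 50% for Flt3-ITD/Runx1-het against Runx1-het and against Flt3-ITD. With peaks covering at least 0.5 of a region, the H3K27ac gained share was 70.5% for Flt3-ITD/NUP98-HOXD13 and 59.7% for Runx1-het against wild type (reversed), and the H3K4me1 one 51.8% for Flt3-ITD/Runx1-het against Flt3-ITD. Regions held were then 90 for Runx1-het and 69 in wild type for H3K4me1, and 48 in wild type for H3K27ac.

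With −log10 q of at least 5, the H3K27ac gained share against wild type was 85.7% for Flt3-ITD, 94.7% for Runx1-het (reversed), 81.8% for Flt3-ITD/NUP98-HOXD13 and 77.8% for Flt3-ITD/Runx1-het. It was 88.2% for Flt3-ITD/NUP98-HOXD13 against NUP98-HOXD13. Reversed values were 36.4% in that genotype against Flt3-ITD, 34.8% for Flt3-ITD/Runx1-het against Runx1-het and 32.1% for Flt3-ITD/Runx1-het against Flt3-ITD. For H3K4me1 it was 61.4% for Flt3-ITD, 16.7% for NUP98-HOXD13 (reversed), 67.9% for Runx1-het, 58.5% for Flt3-ITD/NUP98-HOXD13 and 66.7% for Flt3-ITD/Runx1-het against wild type, 90.2% for Flt3-ITD/NUP98-HOXD13 against NUP98-HOXD13, with 52.9% for Flt3-ITD/Runx1-het against Runx1-het. At that threshold the lists held 51 (Flt3-ITD), 32 (NUP98-HOXD13), 45 (Flt3-ITD/NUP98-HOXD13), 41 (Flt3-ITD/Runx1-het) and 31 (wild type) H3K27ac regions, and 70 (Flt3-ITD), 25 (NUP98-HOXD13), 76 (Runx1-het), 66 (Flt3-ITD/NUP98-HOXD13), 80 (Flt3-ITD/Runx1-het) and 57 (wild type) H3K4me1 regions. The causes were not tested. Gained and lost counts therefore depend on list length and threshold, and depth and the spread between mice are unknown. Shares over all regions are not given at the alternative settings, so these changes are not results about the members alone.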
